A study of Mus musculus with 40 samples.

Results

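The genes of the mammalian circadian clock Clock, Per1, Per2, Per3, Cry1, Cry2, Dbp, Tef, Hlf and Bhlhe40 were examined for acetylation of lysine 27 of histone H3 (H3K27ac), a mark of active promoters and enhancers. The 10 genes were taken by name, and each was followed over its GENCODE M21 span on mm10 with 5 kb added upstream of its start. They are 10 of 21911 protein-coding genes, and all 10 were among the 15183 genes with a peak in at least 3 of the 24 libraries. Preadipocytes came from the inguinal white fat of C57BL/6 mice, 8 to 12 weeks old by the study's methods, and were grown on collagen. WT cells carried both nucleosome-binding proteins HMGN1 and HMGN2, and DKO cells came from mice that were Hmgn1-/- and Hmgn2-/- and lacked both. Cells were fixed as preadipocytes at day 0 and at days 3, 6 and 9 of differentiation towards brown-like adipocytes, with 3 libraries in each of the 8 groups. Insulin, dexamethasone, IBMX, T3 and rosiglitazone started differentiation in both genotypes, and insulin and T3 followed. The hour of the day at which cells were fixed is not given in the sources used here, so no phase of the clock can be assigned to any library.

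The clock is a loop of transcription and repression. CLOCK pairs with BMAL1, the product of Arntl, binds E-boxes and drives Per and Cry genes, whose proteins return to the nucleus and hold that pair back. DBP, TEF and HLF are related activators that bind D-boxes in output genes, and BHLHE40 competes for E-boxes as a repressor. The loop runs in fat cells as in most tissues, and glucocorticoids such as dexamethasone are known inducers of Per1 in cultured cells.

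The lists held 2194886 peaks, 47448 to 115923 per library, and whole libraries differed in the genome length their peaks covered. The DKO mean was 133% of the WT mean on day 0 and 78.4% on day 3, then 53.6% on day 6 and 116% on day 9. DKO day 0 replicate 2 had wide peaks, with a median of 1076 bp against 313 to 376 bp elsewhere, and WT day 3 replicate 3 was shallow. The former covered 96.4 Mb, the other DKO libraries of day 0 47.7 and 58.0 Mb, and WT 46.1 to 54.6 Mb. The latter covered 31.1 Mb against 49.8 and 52.85 Mb in the other WT libraries of day 3. The percentages of days 0 and 3 thus depend on these libraries. Background stood at 8.61 to 12.9 reads per kb in the other 23 libraries, which is the depth behind each count of reads given here. Length under peaks summed over 6 adipocyte genes was 10.5 to 30.7 kb in day 0 libraries and 52.5 to 78.6 kb at day 9, and over 6 preadipocyte genes it was 33.1 to 57.4 and 34.0 to 40.9 kb. Adipoq, the adiponectin gene, had no peak in any library of days 0 and 3 and a peak in all libraries of days 6 and 9. Ucp1, the defining gene of brown fat, had no peak over its span and 5 kb upstream in any of the 24 libraries. Regions farther from Ucp1 were not counted here, and the study names it among brown-specific genes linked to enhancers. The 5 brown fat genes with Ucp1 among them summed to 1.17 to 3.70 kb at day 0 and reached 2.95 to 4.33 kb at day 9 in WT against 7.44 to 8.54 kb in DKO. Among them Elovl3, a fatty acid elongase, had no peak at day 0 and day 9 means of 0.578 kb in WT and 3.58 kb in DKO. Summed macrophage markers covered 18.5 to 45.2 kb at day 0 and 6.12 to 10.3 kb at day 9, and their part in the results below was not tested. Hmgn2, a targeted gene, had a peak in 3 of 3 WT libraries at every day, with group means of 1.04 to 1.63 kb, and in 0 of 3 DKO libraries at every day, as the genotype labels say. Hmgn1 had a peak in every library of both genotypes, and its WT means lay between 1.197 and 1.86 kb, its DKO means between 1.207 and 2.61 kb. Lengths and ranks of peaks in a mixed culture cannot tell fewer acetylated cells from less acetylation per cell.

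Promoter sequence gave the clock motifs a place beside the peaks. The RefSeq table for GRCm38.p6, the assembly behind mm10, held 8 of the 10 genes, with 12 starts in all, and Per2 and Bhlhe40 had no entry. In the 250 bases before each start, both strands were searched for the E-box CACGTG, the E-prime-box CACGTT, the D-boxes TTATGTAA and TTACGTAA, the cyclic AMP element TGACGTCA, the ROR element TAGGTCA and the glucocorticoid element ACANNNTGT. None of these letters overlapped another motif in the sequences printed, and capitals mark each match. The 6 promoters with a match and at most 10 bases in untranslated exons are shown, 5′ to 3′ on the strand of the gene, to give the place of each box before the start.
Per1 (chr11:69098699-69098948, plus strand, RefSeq start 3.73 kb downstream of the GENCODE start): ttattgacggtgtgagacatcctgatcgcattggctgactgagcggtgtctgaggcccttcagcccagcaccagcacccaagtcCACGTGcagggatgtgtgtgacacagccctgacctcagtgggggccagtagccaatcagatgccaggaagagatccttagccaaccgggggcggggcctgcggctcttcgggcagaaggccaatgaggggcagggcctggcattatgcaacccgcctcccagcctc
Cry1 (chr10:85185055-85185304, minus strand): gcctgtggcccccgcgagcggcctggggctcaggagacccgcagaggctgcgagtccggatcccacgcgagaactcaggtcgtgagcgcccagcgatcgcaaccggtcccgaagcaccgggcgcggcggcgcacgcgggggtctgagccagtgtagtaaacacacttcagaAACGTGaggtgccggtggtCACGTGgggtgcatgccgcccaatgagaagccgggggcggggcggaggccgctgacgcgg
Cry2 (chr2:92434070-92434319, minus strand): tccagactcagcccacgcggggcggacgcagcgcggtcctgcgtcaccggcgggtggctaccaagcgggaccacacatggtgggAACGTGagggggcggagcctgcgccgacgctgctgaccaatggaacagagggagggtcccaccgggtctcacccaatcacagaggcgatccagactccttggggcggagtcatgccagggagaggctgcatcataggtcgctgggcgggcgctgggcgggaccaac
Per3 (chr4:151044666-151044915, minus strand): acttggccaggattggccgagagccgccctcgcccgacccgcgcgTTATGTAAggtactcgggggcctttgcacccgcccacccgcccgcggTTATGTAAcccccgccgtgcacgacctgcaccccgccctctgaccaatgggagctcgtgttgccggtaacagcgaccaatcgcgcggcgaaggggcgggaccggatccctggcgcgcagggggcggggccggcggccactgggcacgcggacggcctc
Tef (chr15:81811164-81811413, plus strand, RefSeq start 8.99 kb downstream of the GENCODE start): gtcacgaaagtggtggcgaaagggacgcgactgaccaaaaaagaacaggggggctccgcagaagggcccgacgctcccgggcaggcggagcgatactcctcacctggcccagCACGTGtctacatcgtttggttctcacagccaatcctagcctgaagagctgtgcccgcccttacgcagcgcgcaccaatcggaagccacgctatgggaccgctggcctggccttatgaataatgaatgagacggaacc
Hlf (chr11:90390918-90391167, minus strand): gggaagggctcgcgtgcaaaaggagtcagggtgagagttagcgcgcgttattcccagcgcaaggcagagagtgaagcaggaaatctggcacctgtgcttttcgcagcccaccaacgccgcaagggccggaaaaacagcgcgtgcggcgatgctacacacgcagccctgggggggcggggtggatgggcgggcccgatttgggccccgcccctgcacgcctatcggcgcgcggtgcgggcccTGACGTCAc

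The Per1 E-box began 166 bases before its RefSeq start, and Cry1 carried an E-box and an E-prime-box, at 60 and 79 bases, the latter read as AACGTG on the gene's strand. Cry2 had an E-prime-box at 166 bases, Per3 a pair of D-boxes at 205 and 158 bases, Tef an E-box at 138 bases and Hlf a cyclic AMP element at 9 bases. The other Tef start also had an E-box, at 127 bases, and the 3 starts of Clock, the Dbp start and the other Per1 start had no match in these windows. Of 32851 promoters in the table, 6.02% held an E-box, 3.85% an E-prime-box, 0.931% a D-box, 1.55% a cyclic AMP element, 2.23% a ROR element and 5.84% a glucocorticoid element, and E-boxes stood at 4 of the 12 clock gene starts.

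All 10 genes bore H3K27ac, and 9 of them had a peak in 24 of 24 libraries. Hlf, with 23, had no peak in WT day 0 replicate 1. No share of all genes is given for a peak in every library, so this count is not read as particular to the clock genes. Peaks were ranked within each library by q, as a percentile with 100 for the strongest, and the strongest peak of Per1 ranked highest of the 10 genes, at 97.03 to 99.97 with a median of 99.7. Dbp followed at 89.3 to 99.9, and Hlf was lowest at 0 to 85.4, where 0 stands for no peak. Fold over background at the strongest peak ran from 15.6 to 38.6 for Per1 and reached 12.4 for Hlf. Peaks covered between 27.8 and 61.1% of the Per1 span, 34.7 to 65.8% of the Dbp span and 27.7 to 63.7% of the Bhlhe40 span, against 1.01 to 4.25% for Clock and at most 5.71% for Hlf. These shares set short genes apart from long ones, whose introns were mostly bare.

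**Figure D1:**
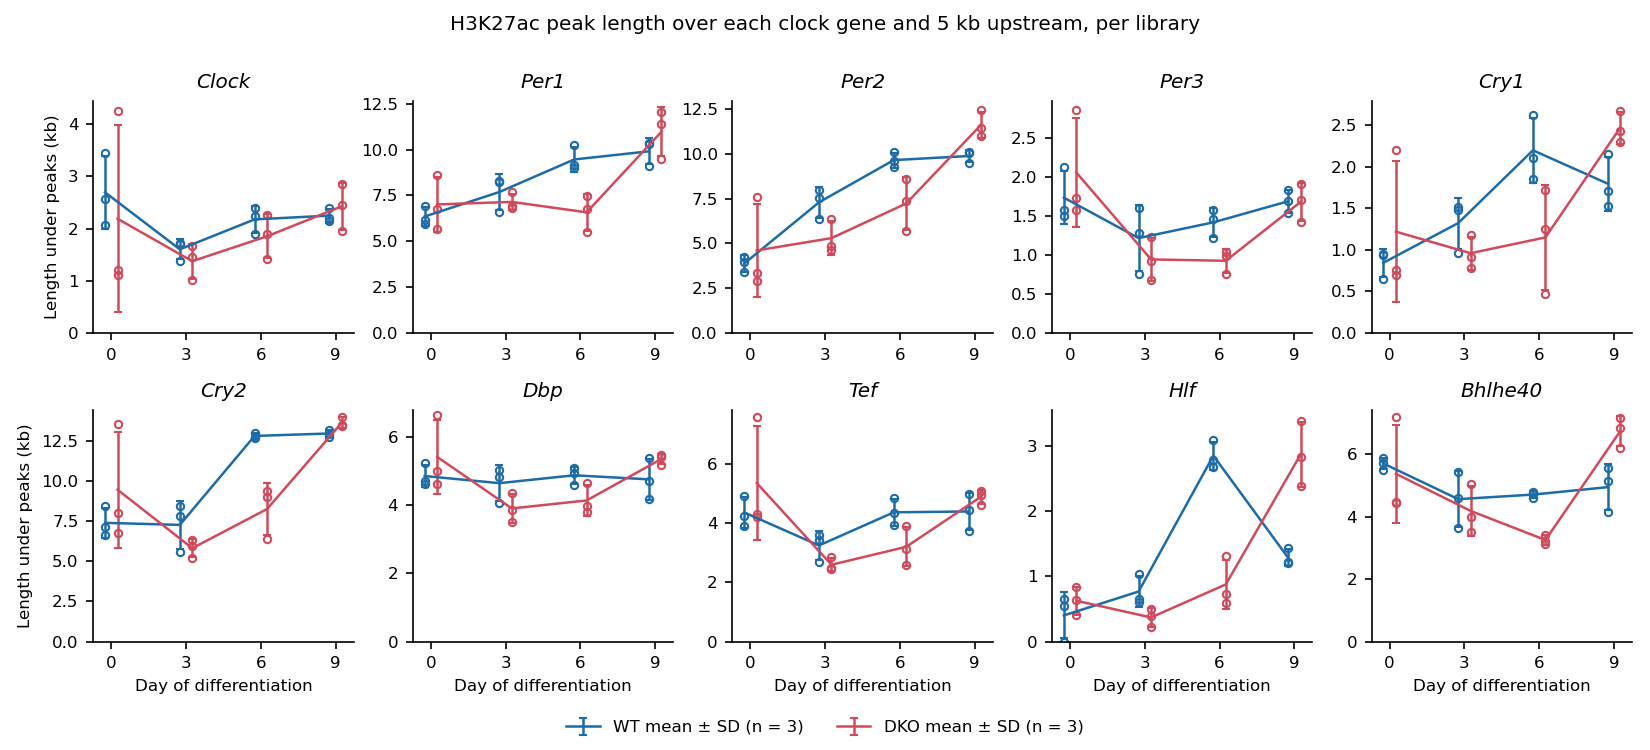
Length under H3K27ac peaks (kb, vertical axis from 0) of the 10 clock genes against day, WT in blue and DKO in red; open points are libraries and lines join group means with SD bars (n = 3). Per1, Per2, Cry1, Cry2 and Hlf ended higher at day 9 than at day 0, and 8 of the 10 genes had DKO points below WT at day 6, a direction of the means that turned for 6 of those 8 when lengths were scaled to each library's covered length.

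Between day 0 and day 9, 5 of the 10 genes rose by the exact permutation test within genotypes with Benjamini-Hochberg adjustment over all genes, namely Per1, Per2, Cry1, Cry2 and Hlf, and none fell. Across all genes 16.4% rose and 14.8% fell. Every p-value here measures the spread between libraries, which the study's legends describe as biological replicates without saying whether they were separate animals. The smallest p of this test is 0.005, so a call depends on how many genes reach it.

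Per2, on chromosome 1 (mm10, 91415982 to 91459324, minus strand), encodes the period protein on which the timing of repression turns. Its peaks covered 3.38, 3.99 and 4.26 kb in WT and 2.89, 7.61 and 3.32 kb in DKO at day 0. They covered 7.53, 8.01 and 6.35 kb in WT and 4.66, 6.39 and 4.85 kb in DKO at day 3, then 9.26, 9.61 and 10.1 kb and 8.61, 7.38 and 5.70 kb at day 6. At day 9 they covered 9.47, 10.05 and 10.1 kb in WT and 12.4, 11.4 and 10.99 kb in DKO. All 6 day 9 libraries lay above all 6 day 0 libraries, the nearest being DKO day 0 replicate 2 with its wide peaks. The mean of the genotypes rose by 6.50 kb (adjusted permutation p = 0.0203), by 6.00 kb in WT and 7.01 kb in DKO. Keeping the 20000 strongest peaks of each library gave 7.29 kb with an adjusted permutation p of 0.0588.

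Within Per2 the gain in reads was larger inside the gene than at its start. Of the Per2 regions, formed by merging overlapping peaks of all libraries, 3 were called in 24 of 24 libraries, with summits 3.05, 13.2 and 22.7 kb downstream of the start, all in introns. At the region 22.7 kb inside, a region singled out after its values were seen, the summit held 15, 30 and 20 reads in WT and 22, 32 and 26 in DKO at day 0. It held 101, 96 and 101 reads in WT and 133, 100 and 99 in DKO at day 9. Day 3 counts of 31 to 79 and day 6 counts of 38 to 115 lay above nearly all of day 0, and no day 9 count overlapped day 0. The peak there stood at percentile 25.6 to 65.0 of its library at day 0 and at 99.2 to 99.9 at day 9, and from day 3 on the strongest Per2 peak lay between 21.3 and 23.3 kb in all 18 libraries. The region over the start, with its summit at 3.05 kb, held 30, 38 and 25 reads in WT and 26, 55 and 27 in DKO at day 0. At day 9 it held 40 to 61, and the ranges overlapped only through the 55 reads of DKO day 0 replicate 2 with its wide peaks.
Per2 intron, 200 bases at the 22.7 kb summit (chr1:91436511-91436710, minus strand, no motif match): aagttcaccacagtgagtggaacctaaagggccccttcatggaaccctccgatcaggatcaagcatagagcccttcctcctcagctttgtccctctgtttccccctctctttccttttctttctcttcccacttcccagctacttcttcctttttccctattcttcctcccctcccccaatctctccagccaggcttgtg

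**Figure D2:**
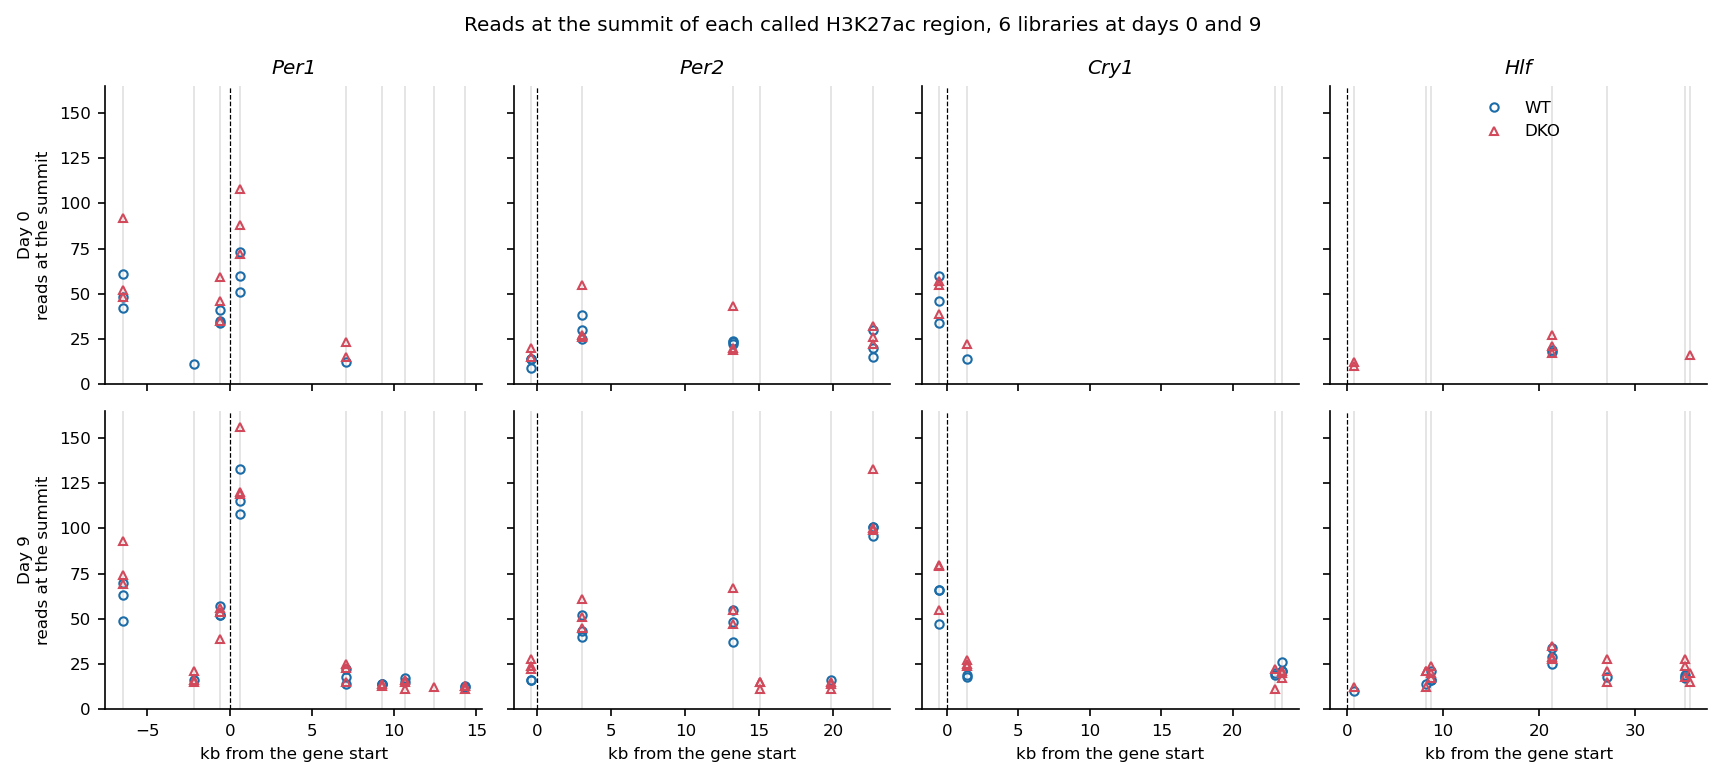
Reads at the summit (vertical axis) of each H3K27ac region called in at least 3 libraries against distance of its median summit from the gene start (kb) for Per1, Per2, Cry1 and Hlf; circles are WT and triangles DKO libraries, day 0 above and day 9 below, and grey lines mark regions of which libraries without a call have no point. At 22.7 kb in Per2 all 6 libraries moved from 15 to 32 reads up to 96 to 133, and Cry1 and Hlf gained regions far from the start.

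The rank of the strongest peak was compared over the same step as an alternative added after seeing the data. A percentile also moves with the number of peaks in a list, which differed between libraries, and with the merging of peaks in DKO day 0 replicate 2, whose list held 60672. It rose for Per2 by 21.1 percentile points, for Hlf by 31.3, for Clock by 6.56 and for Per1 by 1.57 (adjusted permutation p of 0.0278, 0.0278, 0.0440 and 0.0278), 4 of 10 genes where 13.9% of all genes rose. Cry1 and Cry2 shifted by 3.07 and 2.89 points (adjusted permutation p = 0.418 and 0.282), so that their rise in length came without a passed rise in rank. By day 3 Per2 was already 13.6 points higher (adjusted permutation p = 0.0416), while Tef was 4.92 points lower (adjusted permutation p = 0.0416), against 1.78% of all genes higher and 10.2% lower.

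**Figure D3:**
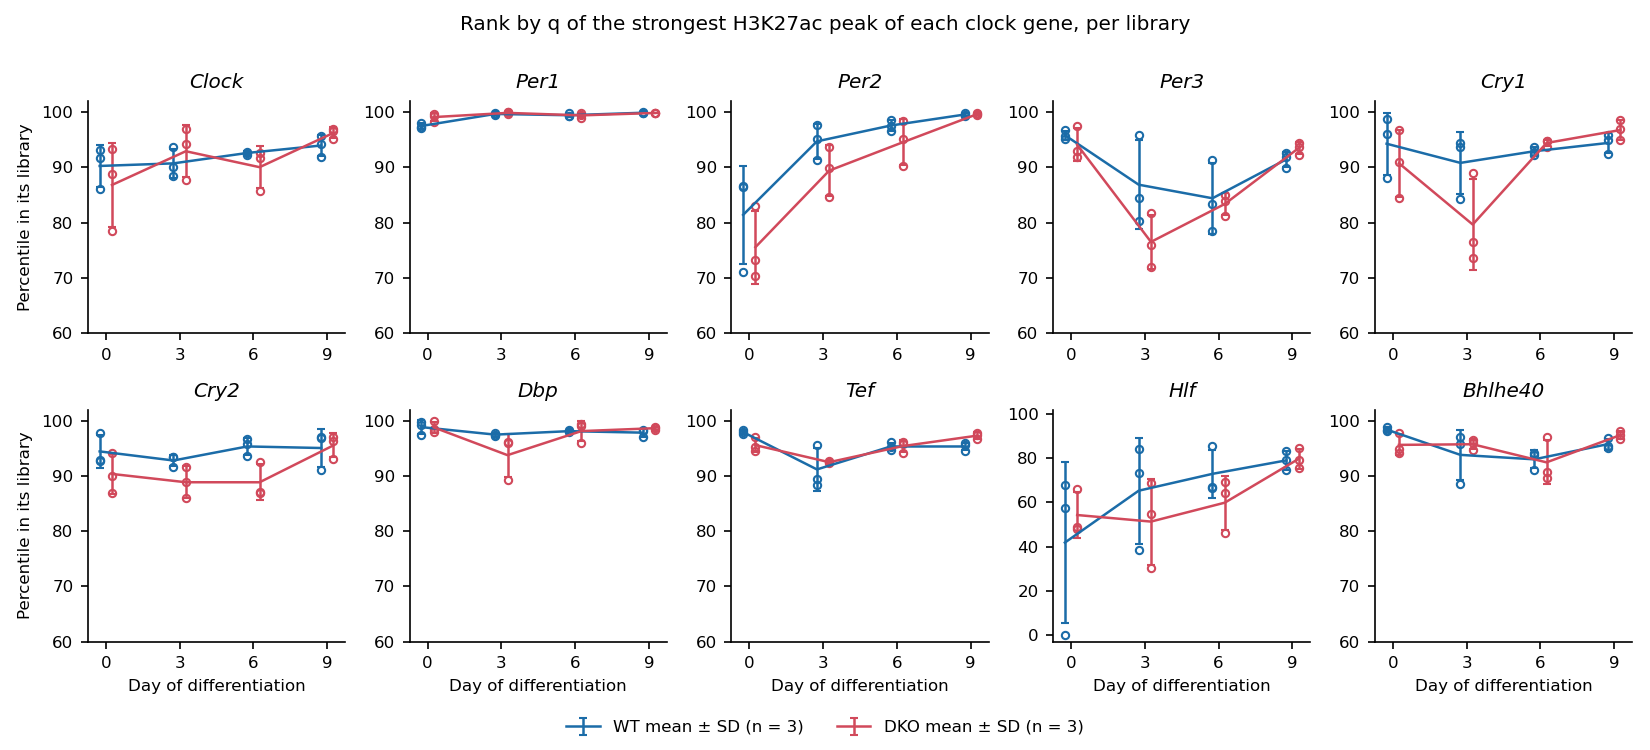
Percentile by q of the strongest peak of each clock gene within its own library (vertical axis, 60 to 100 except for Hlf, where it starts below 0) against day, WT in blue and DKO in red; open points are libraries and lines join means with SD bars (n = 3). Per2 climbed from 70.3 to 86.7 at day 0 to 99.2 to 99.9 at day 9, while Per1 stayed between 97.03 and 99.97 throughout.

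Per1 (chromosome 11, 69095217 to 69109960, plus strand) encodes the period protein induced fastest by hormones. Its peaks covered 6.16, 5.97 and 6.93 kb in WT and 5.67, 8.62 and 6.75 kb in DKO at day 0. At day 9 they covered 9.09, 10.3 and 10.3 kb in WT and 12.1, 11.4 and 9.47 kb in DKO. No day 9 library fell to the day 0 range, and the rise was 3.76 kb (adjusted permutation p = 0.0203). The region over the start was 6.54 kb long and took in both RefSeq starts, and the strongest summits lay 0.329 to 0.909 kb or 4.04 to 4.19 kb downstream in 23 libraries. In WT day 0 replicate 3 the strongest peak of the span was instead the one over the start of its neighbour Vamp2, at -6.52 kb from the Per1 start. Summit reads over the start region went from 51 to 108 at day 0, the highest in DKO day 0 replicate 2, to 108 to 156 at day 9. Per1 also gained 3 regions by day 9, with summits 9.28, 10.6 and 14.3 kb inside, each called in 0 of 6 libraries at day 0 and 5 of 6 at day 9 at 11 to 17 reads. With peaks limited to the 20000 strongest the rise was 0.778 kb (adjusted permutation p = 0.633).

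Cry1 and Cry2 encode the cryptochromes, the main repressors of CLOCK and BMAL1. Cry1 (chromosome 10, 85131700 to 85185064, minus strand) had 0.650, 0.935 and 0.947 kb under peaks in WT and 0.758, 2.19 and 0.7 kb in DKO at day 0. At day 9 it had 1.71, 1.52 and 2.15 kb in WT and 2.67, 2.43 and 2.29 kb in DKO. Only DKO day 0 replicate 2 reached the day 9 range, and the rise was 1.10 kb (adjusted permutation p = 0.0203), or 0.135 kb among the 20000 strongest peaks (adjusted permutation p = 0.932). Its promoter region, 0.56 kb upstream of the start at the summit, was called in every library at 22 to 80 reads. An intronic region 23.4 kb inside was called in 0 of 6 libraries at day 0 and 6 of 6 at day 9, with 17 to 26 reads at day 9.

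Cry2 (chromosome 2, 92403646 to 92434043, minus strand) covered 6.63, 8.41 and 7.12 kb in WT and 6.78, 13.6 and 8.01 kb in DKO at day 0. At day 9 it covered 12.9, 12.7 and 13.2 kb in WT and 14.0, 13.4 and 13.4 kb in DKO. DKO day 0 replicate 2 again lay within the day 9 range, and the other 5 libraries of day 0 lay below it. The rise was 4.86 kb (adjusted permutation p = 0.0481) and became 5.89 kb (adjusted permutation p = 0.0156) without that library. With the 20000 strongest peaks it was 6.68 kb (adjusted permutation p = 0.135). Nearly all of the length belonged to 1 merged region of 24 libraries that held the start.

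Hlf (chromosome 11, 90336536 to 90390895, minus strand), an activator of D-boxes, started with the least acetylation of the 10 genes. Its peaks covered 0, 0.659 and 0.544 kb in WT and 0.407, 0.841 and 0.631 kb in DKO at day 0, and 0.610, 1.04 and 0.651 kb and 0.218, 0.393 and 0.499 kb at day 3. WT libraries then had 2.79, 3.09 and 2.68 kb at day 6 and 1.22, 1.21 and 1.43 kb at day 9. DKO libraries had 1.31, 0.736 and 0.588 kb at day 6 and 2.83, 3.39 and 2.39 kb at day 9. WT was highest at day 6 and DKO at day 9, with no overlap between genotypes on days 3, 6 and 9. The rise from day 0 to day 9 over both genotypes was 1.56 kb (adjusted permutation p = 0.0203), or 0.116 kb among the 20000 strongest peaks (adjusted permutation p = 0.981). No region lay over the start: the nearest, 0.65 kb inside, was called in 9 libraries, and the strongest peak lay 21.3 to 21.4 kb inside in 21 of the 23 libraries with a peak. Regions 8.71 and 35.2 kb inside were each called in 0 of 6 libraries at day 0 and 6 of 6 at day 9, at 16 to 24 and 17 to 28 reads. At the summit of the latter stood a glucocorticoid element, printed in capitals, which 6.08% of 91967 regions held in windows of this length.
Hlf intron, 200 bases at the 35.2 kb summit (chr11:90355568-90355767, minus strand): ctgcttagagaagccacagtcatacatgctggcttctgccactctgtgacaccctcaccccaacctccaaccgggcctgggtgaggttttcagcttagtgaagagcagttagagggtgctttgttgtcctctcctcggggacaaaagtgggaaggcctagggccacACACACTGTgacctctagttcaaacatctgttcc

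Dbp, Tef and Bhlhe40 did not pass the test between day 0 and day 9. Dbp (chromosome 7, 45705088 to 45710203, plus strand) held between 4.62 and 6.65 kb at day 0 and 4.18 and 5.48 kb at day 9 (change -0.0802 kb, adjusted permutation p = 0.942). Its main region held the start and most of the gene, and the span also took in a peak over the start of Car11 and part of Sphk2. Tef (chromosome 15, 81802421 to 81826863, plus strand) was the gene that fell at day 3, by 1.94 kb (adjusted permutation p = 0.0235), from 3.90 to 7.57 kb at day 0 to 2.46 to 3.61 kb, with no overlap, where 25.2% of all genes fell. Between day 0 and day 9 Tef changed by -0.215 kb (adjusted permutation p = 0.942). Scaled by each library's covered length the Tef change at day 3 was -0.429 kb (adjusted permutation p = 0.222). The strongest Tef peaks lay 8.15 to 9.81 kb inside, around the RefSeq start 8.99 kb downstream whose promoter is printed above, in all 24 libraries. Bhlhe40 (chromosome 6, 108660629 to 108666925, plus strand) held 4.45 to 7.20 kb at day 0 and 4.14 to 7.16 kb at day 9 (change 0.303 kb, adjusted permutation p = 0.763, and -0.0485 kb after that scaling), nearly all within 1 region.

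Clock (chromosome 5, 76209868 to 76304792, minus strand), the activator, carried its strongest peak within 1 kb of the start in 23 libraries, 0.43 kb upstream at the median summit of that region, and had 1.12 to 4.25 kb at day 0 against 1.96 to 2.86 kb at day 9 (change -0.104 kb, adjusted permutation p = 0.939). A pair of regions near its 3′ end, 87.5 and 88.6 kb inside, was called in 4 of 6 libraries each at day 0 and in 1 and 0 at day 9. Per3 (chromosome 4, 151003652 to 151044665, minus strand), a period gene with a lesser part in the loop, covered 1.504 to 2.87 kb at day 0, 0.680 to 1.61 kb at day 3 and 1.43 to 1.92 kb at day 9 (change from day 0 to day 9 of -0.212 kb, adjusted permutation p = 0.643). A Per3 region 38.3 kb inside was the only region lost, from 5 of 6 libraries at day 0 to 0 of 6 at day 9. In the single steps from day 3 to 6 and from day 6 to 9 the permutation test called 0.0% of all genes. At an unadjusted p under 0.05, 5 of the 10 rose from day 3 to 6 (Clock, Per2, Cry2, Tef and Hlf, 19.2% of all genes) and 5 from day 6 to 9 (Per1, Per2, Per3, Cry2 and Bhlhe40, 30.7%).

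No clock gene passed the test between WT and DKO over the 4 days. By the exact permutation test within days, 0 of the 10 genes differed in length under peaks (0.151% of all genes called), and 0 at an unadjusted p under 0.05 (9.87%). The mean difference, DKO minus WT, lay between -0.818 kb for Cry2 and -0.0801 kb for Dbp, with adjusted p from 0.868 to 1.0. In rank 0 of 10 passed (3.48% of all genes), and Cry2 alone had an unadjusted permutation p under 0.05, with its strongest peak 3.51 percentile points lower in DKO (p = 0.00871, adjusted permutation p = 0.1001), where 19.7% of all genes lay lower at that level. Its DKO libraries stood at 86.9 to 94.1 at day 0, 85.95 to 91.7 at day 3, 86.9 to 92.6 at day 6 and 93.1 to 97.1 at day 9, and WT at 92.6 to 97.9, 91.6 to 93.4, 93.7 to 96.6 and 91.1 to 97.1. Only day 6 had no overlap, and there the lists held 47448 to 74867 peaks in DKO and 98503 to 105511 in WT, a difference that moves percentiles and whose part in the result was not tested.

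Within days the genotypes parted mostly at days 6 and 9, in opposite directions, as did the covered length of whole libraries. With 3 libraries against 3 the smallest exact permutation p is 0.1, so groups are described by whether they overlap. At day 0 no clock gene had groups apart, where DKO was higher at 18.4% and lower at 0.705% of all genes, and at day 3 DKO was lower at Hlf alone (10.8%). Without DKO day 0 replicate 2, DKO was lower at 3 of the 10 at day 0, and without WT day 3 replicate 3 it was lower at 9 of the 10 at day 3. With a library fewer the groups part more easily. Shares of all genes without these libraries are not given, so these counts are not read as particular to the clock genes. At day 6 DKO was lower at 8 of the 10, all but Clock and Dbp, as it was at 59.6% of all genes. Scaled to the covered length of each library, DKO was instead higher at 7 of the 10 at day 6 and lower at Hlf alone. No share of all genes is given for scaled lengths, at this day or at day 9, so scaled counts are not read as particular to the clock genes. Preadipocyte markers summed to 11.01 to 16.7 kb in DKO and 36.3 to 37.2 kb in WT at day 6, and adipocyte markers to 48.5 to 67.0 and 65.7 to 69.6 kb, and their part in the result was not tested. At day 9 DKO was higher at Per2, Cry1, Cry2, Hlf and Bhlhe40, 5 of the 10 (29.3% of all genes), and after scaling at Cry1, Hlf and Bhlhe40, while the Cry2 difference turned to -1.23 kb and that of Per2 was 0.0339 kb, both with overlap. At day 9 adipocyte markers summed to 74.0 to 78.6 kb in DKO and 52.5 to 58.5 kb in WT, and brown fat markers to 7.44 to 8.54 and 2.95 to 4.33 kb. Macrophage markers summed to 8.86 to 10.3 and 6.12 to 7.88 kb, and endothelial markers to 3.12 to 4.03 and 1.49 to 2.64 kb. These 4 lists were higher in DKO without overlap, while preadipocyte markers overlapped, at 34.7 to 40.1 and 34.0 to 40.9 kb. The part of the markers in the result was not tested. Those 5 genes were the ones below WT at day 6 and above it at day 9, a pattern of 16.3% of all genes.

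**Figure D4:**
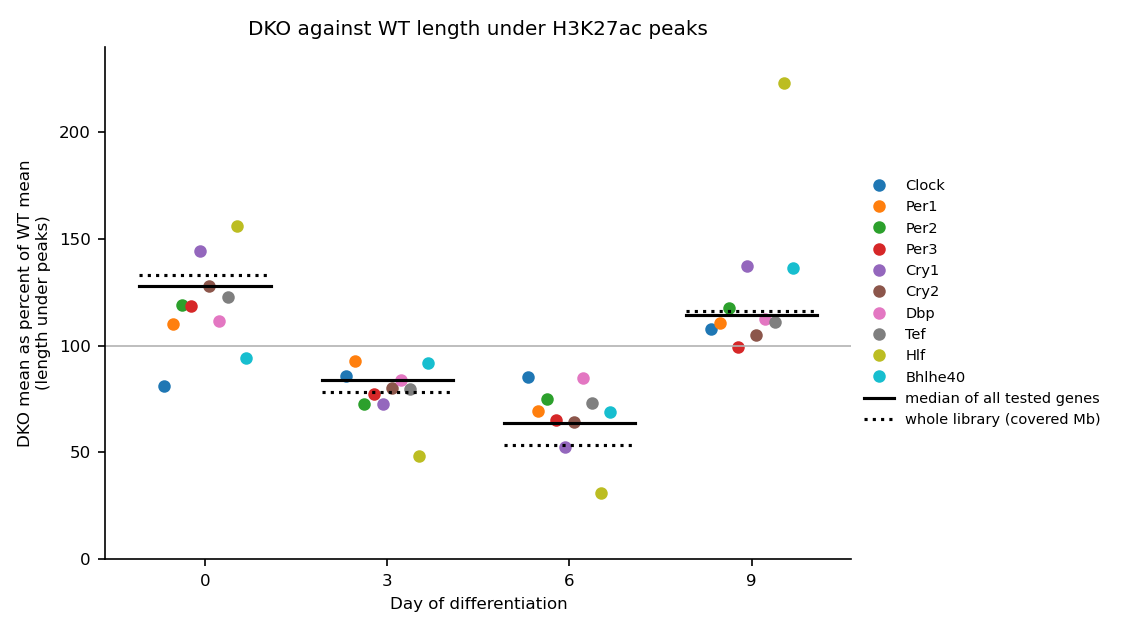
DKO mean length under peaks as percent of the WT mean (vertical axis from 0) for the 10 clock genes at each day, with the median of all 15183 genes as a solid line and the covered length of whole libraries as a dotted line. At day 6 all 10 genes lay below 100%, but 8 of them lay above the whole-library value of 53.6%, and Hlf stood apart at 30.8% at day 6 and 223% at day 9.

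The percent of WT ran from 30.8% at Hlf to 85.1% at Clock at day 6, against 63.7% for the median gene. At day 9 it ran from 99.5% at Per3 to 223% at Hlf, against 114%. In percent, Hlf was thus the gene farthest from WT at days 3, 6 and 9, at 48.2% on the earliest of these. In kb, Per2 at day 3 (-2.00), Cry2 at day 6 (-4.55) and Bhlhe40 at day 9 (1.79) differed more. Hlf was also the one that lay below WT at day 6 and above at day 9 without overlap after scaling, by -1.08 and 1.07 kb, while its scaled groups overlapped at day 3. Calls of its regions are given as a description, since no region tested passed by genotype. The region 8.71 kb inside was called in 3 WT and 0 DKO libraries at day 6 and in 3 of each at day 9. The region 35.7 kb inside was called in 3 WT and 2 DKO libraries at day 6, and in 0 WT and 2 DKO libraries at day 9. The region 27.1 kb inside was called in 1 WT library at day 9, at 18 reads, and in 3 DKO libraries, at 15 to 28 reads.

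A test of whether the genotype difference changed between days, relabelling genotypes within days, passed for Hlf (adjusted permutation p = 0.0249), Cry1 (adjusted permutation p = 0.0368) and Per2 (adjusted permutation p = 0.0428), 3 of the 10 where 17.1% of all genes passed. A difference on a lone day cannot pass this test. Cry1 had 2.11, 1.86 and 2.62 kb in WT and 1.72, 1.25 and 0.473 kb in DKO at day 6, below all WT libraries, where at day 9 DKO lay above. After scaling to covered length the adjusted p was 0.0869 for Hlf, 0.602 for Cry1 and 0.156 for Per2, and in rank 0 of 10 passed, as did 0.0% of all genes. Without DKO day 0 replicate 2 the adjusted p was 0.0401 for Hlf, 0.0509 for Cry1 and 0.0530 for Per2. Without WT day 3 replicate 3, 6 of the 10 genes passed. The 17.1% of all genes belongs to the test with all 24 libraries, and no share is given for this count.

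Bhlhe40 and Cry2 showed the same turn in length. Bhlhe40 had 4.59, 4.80 and 4.74 kb in WT and 3.22, 3.42 and 3.13 kb in DKO at day 6, and 4.14, 5.56 and 5.15 kb in WT and 7.16, 6.86 and 6.21 kb in DKO at day 9. The groups did not overlap on either day (by-day adjusted permutation p = 0.0581), and the day 9 difference stayed apart after scaling while the day 6 difference turned to 1.52 kb higher in DKO. Cry2 had 12.7, 13.0 and 12.6 kb in WT and 8.96, 9.39 and 6.37 kb in DKO at day 6 (by-day adjusted permutation p = 0.0759). Per1, Per3 and Tef differed at day 6 by -2.88, -0.493 and -1.17 kb, lower in DKO, and of these Per1 and Tef were higher in DKO after scaling and Per3 overlapped.

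Merged regions were also counted by the libraries that called them. The Clock pair, the Per2 regions inside the gene and the regions of Hlf at 0.65, 21.3, 27.1 and 35.7 kb lie outside the rule for named regions and were chosen after their values were seen. The 10 spans held 72 of 169358 regions, of which 42 were called in at least 3 libraries and 26 in 1 library. Of the 42, 14 were called in 24 of 24 libraries (16.7% of all such regions), 6 were gained by day 9 (9.95%), meaning at least 5 of 6 libraries at day 9 and at most 1 of 6 at day 0, and the Per3 region was lost (5.73%). By genotype, 0 of 27 regions tested passed the exact permutation test (0.0% of all regions), and 0 had an unadjusted p under 0.05 (5.28%). A gap of at least 4 libraries between genotypes was seen at 2 of the 42 (12.3%). The Dbp region 3.76 kb upstream was called in 11 WT and 7 DKO libraries (permutation p = 0.14), and the Per1 region 9.28 kb inside in 6 WT and 2 DKO libraries.

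Of the 42 summit windows of 200 bases, 2 held any of the motifs, each a glucocorticoid element, at Hlf 35.2 kb and Cry1 23.0 kb inside. In all 91967 regions an E-box stood in 2.62% of such windows, an E-prime-box in 3.15%, a D-box in 0.483%, a cyclic AMP element in 0.1% and a ROR element in 1.9%. None of the 42 held an E-box or a D-box.

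Shapes over time were alike within pairs of genes. Over the 8 group means of length, Pearson r was 0.96 for Cry1 and Hlf, 0.95 for Dbp and Tef, 0.95 for Per1 and Cry1 and 0.94 for Per3 and Tef, and it was lowest for Per2 and Per3, at 0.0. These points share libraries whose covered length moves every gene, so the values describe likeness and carry no test.

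Another 21 genes of the pathway, listed by role, gave the surroundings. Between day 0 and day 9, 6 of the 21 rose and 2 fell, against 16.4% and 14.8% of all genes. Arntl, the partner of Clock, went from 2.83 kb in WT and 2.53 kb in DKO to 6.97 and 9.50 kb, a rise of 5.55 kb (adjusted permutation p = 0.0203). Npas2, which can stand in for Clock, fell by 4.12 kb and Bhlhe41, the relative of Bhlhe40, fell by 3.84 kb (adjusted permutation p = 0.0203 for each). Rorb, a nuclear receptor of the family that acts on Arntl, rose by 2.41 kb, Nfil3, the D-box repressor, by 3.85 kb, Btrc, a ubiquitin ligase subunit for PER proteins, by 1.60 kb and Nampt, an enzyme of NAD synthesis, by 3.75 kb. At day 6 DKO lay below WT without overlap at 18 of the 21 and at day 9 above at 11, against 59.6% and 29.3% of all genes. The by-day test passed for Arntl, Npas2, Nr1d2, Nfil3, Btrc and Usp2, 6 of the 21 against 17.1%. Whole DKO libraries covered 53.6% of the WT length at day 6 and 116% at day 9. Scaled lengths are not given for the 21 genes, so these counts are not read as particular to the pathway. Over the 4 days 0 of the 21 differed by genotype, and 2 had an unadjusted permutation p under 0.05 (9.87% of all genes), among them Rora, whose difference, DKO minus WT, was -7.30 kb.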

How the data were processed

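H3K27ac was measured by ChIP-seq in 24 libraries. Per the labels, single reads were trimmed with cutadapt 1.18 and aligned with BWA 07.17 to mm10, and the authors called peaks in each library by itself with MACS2 2.1.1.20160309, after base calling with bcl2fastq 2.17. The 16 input libraries were not analysed here, and the input that MACS2 compared with each library is not given in the sources used here. The deposited lists give for each peak the fold over background at its summit (a ratio), the −log10 p-value and −log10 q-value, and a score derived from q by the authors. The depth of the libraries is not given in the lists, and reads at summits were recovered from the deposited fold and −log10 p, whole within a gap of 0.001 in −log10 p for 99.6 to 100% of 5000 sampled peaks per library.

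For each gene the length under peaks over its GENCODE M21 span and 5 kb upstream, and the percentile by q of its strongest peak, were computed with Python 3.11.15, numpy 2.4.6, pandas 2.3.3 and scipy 1.17.1. Peaks of all lists that overlap were merged into regions. Exact two-sided permutation tests over libraries were run for all 15183 genes with a peak in at least 3 libraries, with Benjamini-Hochberg adjustment over all of them at 0.05. The smallest p was 0.1 at a day, 1.25e-05 over 4 days and 0.005 for a step between days. The tests were checked on simulated data. All 10 genes are named, with the regions over their starts and those gained, lost or differing by at least 4 libraries between genotypes. The genes and lists were chosen with earlier results of these data known. Alternatives were a −log10 q of at least 5, the 20000 strongest peaks, 250 bp about summits, no upstream stretch, scaling to covered Mb, a replicate block, and leaving out libraries. Of the other genes of the pathway, 1 is counted but not reported here by name.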

Additional observations from a re-analysis of the deposited data

Results flagged for a closer look

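For Hlf, Cry1 and Per2 the difference between genotypes changed with the day by the exact permutation test (adjusted p of 0.0249, 0.0368 and 0.0428 over all genes). Of all genes 17.1% passed this test. Scaled to the covered length of each library the adjusted p was 0.0869, 0.602 and 0.156. In rank 0 of the 10 genes passed, as did 0.0% of all genes, so rank cannot tell these genes from others. With 20000 peaks per library 0 of the 10 passed, and no share of all genes is given for that setting. Hlf differed by -0.398 kb at day 3, -1.97 kb at day 6 and 1.58 kb at day 9, DKO minus WT, with no overlap on any of these days. After scaling its groups overlapped at day 3. Per2 differed by -2.42 kb at day 6 and 1.74 kb at day 9, and Cry1 by -1.05 and 0.67 kb. For Cry2, at -4.55 and 0.668 kb, and Bhlhe40, at -1.46 and 1.79 kb, all DKO libraries lay below WT at day 6 and above at day 9, and the test of the change between days gave adjusted p of 0.0759 and 0.0581. Whole DKO libraries covered 53.6% of the WT length at day 6 and 116% at day 9, and after scaling to that length the direction at day 6 turned for Per2, Cry2 and Bhlhe40 and that at day 9 for Cry2.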

How the results depend on the processing

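Among the 10 genes, the rise from day 0 to day 9 kept adjusted p under 0.05 for Per1, Per2, Cry1, Cry2 and Hlf after scaling to covered Mb (0.0148) and without DKO day 0 replicate 2 (0.0156). With 20000 peaks per library 0 of 10 passed in the steps from day 0 to 3 and from day 0 to 9 and in the test by day, DKO was lower without overlap at 0 at day 3 and 2 at day 6, and higher at 1 at day 3 and 1 at day 9. With −log10 q of at least 5, DKO was lower at 0 at day 3. Counting 250 bp about summits, DKO was lower at 3, 2 and 2 at days 0, 3 and 6 and higher at 1 at day 6 and 1 at day 9. Scaled to covered Mb, DKO was lower at 2 at day 0 and 1 at day 6 and higher at 7 at day 6 and 3 at day 9, 4 genes passed from day 0 to 3 and 2 from day 3 to 6, and 0 passed by day. By percentile 2 passed from day 0 to 3 and 0 by day. No share of all genes is given beside these counts, and their cause was not tested.

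Of 12 pairs of same-numbered libraries of the genotypes, 4 deviated together with r over 0.1, all at days 0 and 3, and the rest had negative r (range -0.837 to 0.898). With 3 libraries per group these values cannot decide whether the numbers pair libraries, and the main tests did not pair them. With a replicate block 0 of 10 passed from day 0 to 3 and 0 from day 0 to 9, where the smallest p a block allows is 0.03125. Leaving out libraries, the number with DKO higher without overlap ranged from 0 to 2 at day 0 and 5 to 8 at day 9, and with DKO lower from 0 to 3 at day 0, 1 to 9 at day 3 and 8 to 10 at day 6. Shares of all genes with libraries left out are not given, for these numbers or for the calls that follow. The calls then ranged from 0 to 2 from day 0 to 3, 0 to 2 from day 3 to 6, 0 to 5 from day 0 to 9 and 0 to 6 by day, and without replicate 1, 2 or 3 of every group 0 passed by day, and no step could pass, since with 2 libraries per group its smallest p is 0.0556.

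The following values, in kb or percentile points, changed sign, and of these Clock by percentile passed the test. With the stricter q limit of 5, the difference in length over 4 days turned to 0.0179 for Per3. With 20000 peaks per library, the difference in length over 4 days turned to 0.0453 for Clock, 0.156 for Per3, 0.038 for Cry1, 0.21 for Cry2, 0.173 for Dbp, 0.0591 for Bhlhe40 and the change from day 0 to 9 turned to 0.952 for Clock, 0.235 for Tef. Counting 250 bp either side of each summit, the difference in length over 4 days turned to 0.201 for Per2. With no upstream stretch, the difference in length over 4 days turned to 0.0486 for Per1, 0.0312 for Tef and the difference in rank over 4 days turned to 0.695 for Clock, 3.93 for Cry1. Scaled by the covered Mb of the library, the difference in length over 4 days turned to 0.741 for Per1, 0.57 for Per2, 0.00848 for Cry1, 0.297 for Cry2, 0.58 for Dbp, 0.279 for Tef, 0.365 for Bhlhe40 and the change from day 0 to 9 turned to -0.0485 for Bhlhe40. By the percentile of the strongest peak, the change from day 0 to 9 turned to 6.56 for Clock, -0.428 for Bhlhe40. Leaving out libraries, the difference in length over 4 days ranged from -0.291 to 0.0485 for Per3, -0.234 to 0.0496 for Dbp, -0.396 to 0.0675 for Bhlhe40, -0.617 to 0.185 for Clock, -0.747 to 0.0459 for Per1, -0.877 to 0.0119 for Per2, -0.29 to 0.151 for Cry1, -0.487 to 0.324 for Tef. Leaving out libraries, the difference in rank over 4 days ranged from -1.59 to 1.49 for Clock, -1.36 to 0.16 for Dbp, -0.368 to 0.765 for Tef, -17.0 to 7.46 for Hlf, -0.598 to 0.591 for Bhlhe40. Leaving out libraries, the change from day 0 to 9 ranged from -0.606 to 0.412 for Clock, -0.244 to 0.227 for Dbp, -0.452 to 0.34 for Tef.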
